A study of Drosophila melanogaster with 3 samples.

Results

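The genes examined were 38 of those that carry proteins into and through the early secretory pathway of Drosophila melanogaster. Further genes of the pathway, such as Sec24AB, were counted in a separate list. The 38 range from recognition of the signal peptide to vesicle traffic between the endoplasmic reticulum (ER) and the Golgi. They were chosen by name and not by their binding values, but with earlier results of these data known. They are 38 of the 13968 protein-coding genes annotated on the chromosome arms. They fall into 6 steps, with 8 genes of the signal recognition particle (SRP) and its receptor, 9 of the translocon and signal peptidase, 5 of the COPII coat, 8 of the COPI coat, 3 of folding in the ER lumen and 5 of the cargo and retrieval receptors. A gene was counted as having a peak when the summit of a reproducible peak lay within 1000 bp of 1 of its annotated transcription start sites (TSSs).

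The secretory pathway begins when SRP binds the signal peptide of a growing chain and brings the ribosome to its receptor on the ER, where the Sec61 channel passes the chain across the membrane. Folded cargo leaves the ER in vesicles coated by COPII, and COPI-coated vesicles return escaped ER proteins and receptors from the Golgi. Glands of the fly that export much protein need this machinery in large amounts. Forkhead (fkh) is the FoxA-type transcription factor of the fly and is known for its roles in the salivary gland and the gut, and CrebA is a further factor known to act on secretory genes in the embryonic salivary gland.

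Binding was measured by chromatin immunoprecipitation and sequencing (ChIP-seq) in prepupae. All samples came from 1 transgenic line with an insertion targeting fkh, in which the factor carries GFP at its C-terminus, and chromatin sheared by sonication was precipitated with an antibody to GFP. There were 3 biological replicates of this 1 group, each of whole animals with males and females pooled, and 1 control shared by the 3 was used for calling. The age on the labels, 24 days, is too long for a prepupa, and its unit may be wrong. No untagged or mutant group was available for comparison, and because whole animals were used a peak cannot be placed in a tissue. The optimal list held 9531 summits with signals from 160 to 6080.8 (median 294.1). Each replicate list and the list called on pooled replicates held 30000 regions, weak background regions included. The signal is the authors' score for a region, in units the sources do not name, and the lists give no read depth. Replicates were therefore compared by rank, with rank 1 the strongest region of a list. The ranks of a gene are its best in each replicate among regions whose summit lay within 1000 bp. These ranks need not all belong to its strongest optimal peak.

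Of the 38 genes, 21 (55.3%) had a peak, beside a background of 31.1% of all protein-coding genes. Counted in each replicate on its own, with its 9531 strongest regions in place of the optimal list, the members with a region within 1000 bp numbered 21, 22 and 21 in replicates 1, 2 and 3. The background in the same lists was 31.0%, 33.2% and 35.6%. The share was thus 56.1% ± 1.52 for the members and 33.2% ± 2.29 for all protein-coding genes (SD, n = 3), and the ranges over the replicates did not overlap. This spread is that of the replicate lists and does not measure what the choice of 38 genes adds. No test of the list was made, because it was put together with earlier results of these data known.

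**Figure D1:**
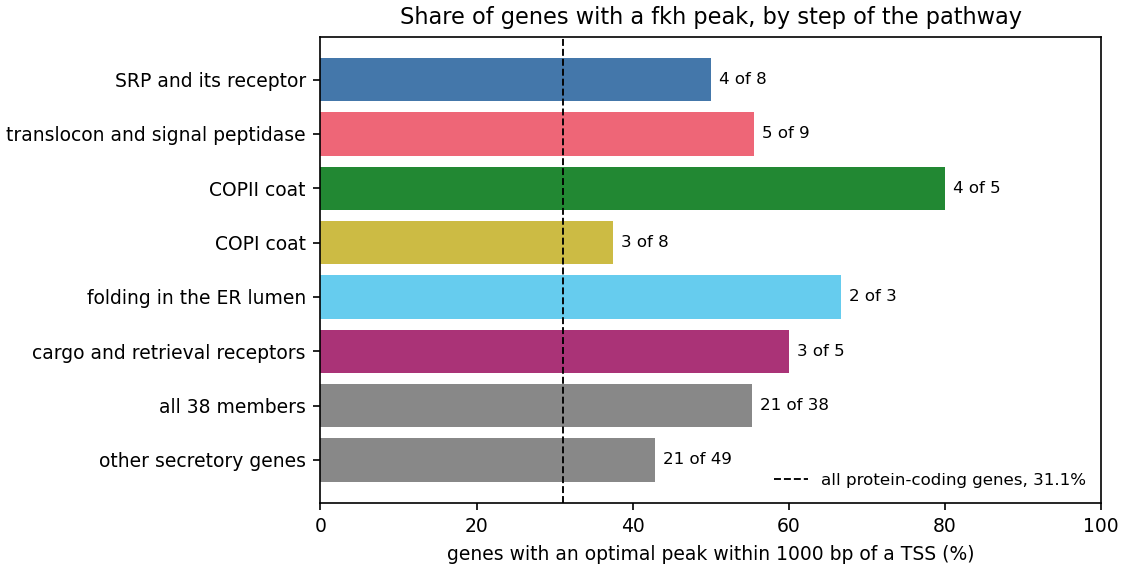
Bars give the share of genes with an optimal peak within 1000 bp of a TSS, in percent, for each of the 6 steps, all 38 members and the other secretory genes, with the count beside each bar and a dashed line at the 31.1% of all protein-coding genes. Every bar passes the line, from COPI at 3 of 8 genes to COPII at 4 of 5.

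The strongest member summits with and without a match to the forkhead word are shown first, since they carry the highest signals of the machinery. The word was searched on both strands as TNTTTNN, where the second and the sixth letter are A or G and the last is C or T, which gives 8 forms. Matches are in capitals and may appear as their reverse complement, and adjoining forms can overlap. Sequences are from the release 6 assembly on the strand of the named gene, and stretches in a UTR were left out or cut to 30 bases. The first 5 hold the word and the last 2 do not.
TRAM (chrX:935317-935346): agtgtgacaagaATAAATAgttcggccaac
Sec23 (chr3R:5648739-5648826): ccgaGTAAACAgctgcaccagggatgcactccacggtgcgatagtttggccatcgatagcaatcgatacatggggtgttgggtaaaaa
Srp72 (chr3R:20587709-20587809): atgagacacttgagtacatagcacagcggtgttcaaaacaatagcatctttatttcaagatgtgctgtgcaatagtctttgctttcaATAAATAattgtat
Calr (chr3R:9630852-9630930): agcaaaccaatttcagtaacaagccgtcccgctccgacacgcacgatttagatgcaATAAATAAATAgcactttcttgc
Srp19 (chr3L:7348450-7348479): ggcgtgcttttTGTTTACcgcttggcttcg
alphaCOP (chr3L:1645289-1645389): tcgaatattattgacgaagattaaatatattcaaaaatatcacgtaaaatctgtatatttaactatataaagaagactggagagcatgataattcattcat
Trp1 (chr2L:10010162-10010262): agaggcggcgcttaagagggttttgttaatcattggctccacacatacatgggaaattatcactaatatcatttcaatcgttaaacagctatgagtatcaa
In Calr the capitals are a pair of overlapping matches.

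Within 50 bp of the strongest summit of each gene, 9 of the 21 members with a peak (42.9%) held the forkhead word, beside 52.4% of the 4885 optimal summits within 1000 bp of any protein-coding TSS. Over all 34 summits of these 21 genes the word was present at 17. Neither count was above that of promoter peaks at large. The count moved with the width searched, from 5 of 21 within 25 bp (23.8%, beside 31.5% of promoter summits) to 14 of 21 within 100 bp (66.7%, beside 73.1%). Over all 34 summits the shares were 32.4% within 25 bp and 70.6% within 100 bp. Narrowed to TGTTTAC and TGTTTAT, the word was within 50 bp at 2 of 21 strongest summits (9.52%), beside 20.0%. The narrowed word was at 0 of 21 within 25 bp, beside 10.3%, and at 4 of 21 within 100 bp (19.0%, beside 30.1%). Over all 34 summits it was at 3 within 50 bp (8.82%). In the promoters, from 250 bp before to 50 bp after the TSS, the word was found in 17 of the 21 members with a peak (81.0%) and in 15 of the 17 without (88.2%), and 68.5% of all protein-coding promoters held it. A match is a run of letters and does not show where the factor binds.

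The steps differed in how many of their genes had a peak, but each step has few genes. Peaks lay at 4 of 8 SRP and receptor genes, 5 of 9 translocon and signal peptidase genes, 4 of 5 COPII genes, 3 of 8 COPI genes, 2 of 3 folding genes and 3 of 5 cargo and retrieval receptors. The highest share was that of COPII, at 80.0%, and the lowest that of COPI, at 37.5%. COPII had the lowest signals among its peaks, with a median of 251.0, and the translocon the highest, with a median of 526.5. The order of the steps was not stable. Genes with at least 1 summit whose peak overlapped the 9531 strongest regions in all 3 replicates were 4 SRP, 4 translocon, 2 COPII, 2 COPI, 2 folding and 3 cargo receptor genes. That stricter call left 17 of the 38 members (44.7%), beside 25.1% of all protein-coding genes. By best rank alone 18 qualified, the further gene being Sec16 of COPII, whose 2 summits each missed a different replicate.

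**Figure D2:**
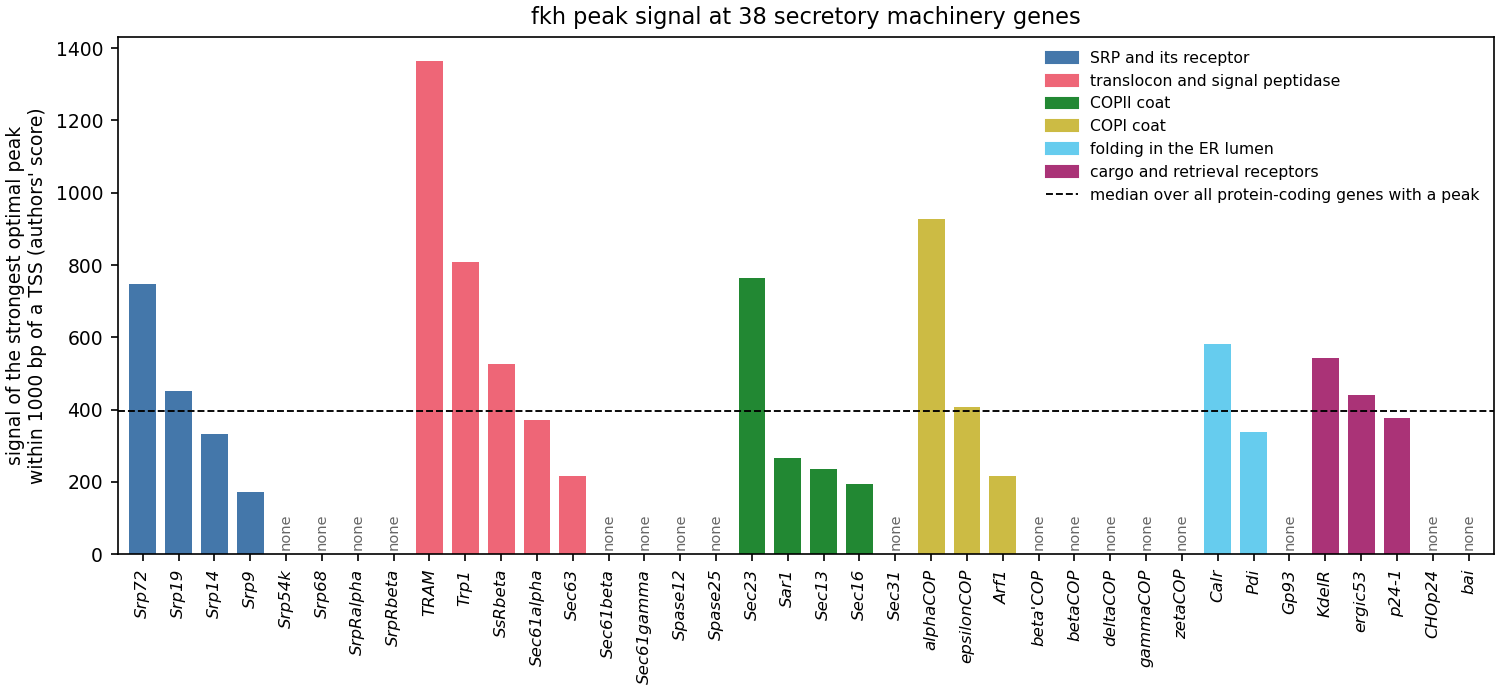
Bars give the signal of the strongest optimal peak within 1000 bp of a TSS (the authors' score, linear axis from 0) for the 38 members, coloured by step, with none written where there is no peak and a dashed line at the median of 395.1 over all protein-coding genes with a peak. TRAM at 1363.4 is the highest bar and Srp9 at 172.4 the lowest, and 11 of the 21 bars pass the line.

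The members' peaks were of ordinary strength for promoter peaks. Their strongest signals ran from 172.4 to 1363.4 with a median of 408.1 and quartiles of 266.0 and 582.0, beside a median of 395.1 and quartiles of 257.6 and 615.9 over the 4345 genes with a peak, and 11 of the 21 exceeded that median. Peaks above the median signal of the optimal list lay at 15 members (39.5%), beside 20.9% of all protein-coding genes. Of the 38 genes 11 (28.9%) had more than 1 summit in reach, beside 11.2% of all protein-coding genes. Of the 21, 10 had 1 summit, 9 had 2, and Srp72 and ergic53 had 3.

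In the SRP group the peaks lay at Srp9, Srp14, Srp19 and Srp72. Srp72, which forms a pair with Srp68 on the SRP RNA, had the strongest, with a signal of 747.4 and ranks of 1093, 876 and 1024 in replicates 1, 2 and 3 (mean 998 ± 111, SD, n = 3). By the ratio of highest to lowest these were the closest 3 ranks of any member. That summit lay 952 bp upstream, in an intron of Septin2 and closer to the TSS of that gene, at 597 bp. A second summit of 600.5 lay 750 bp upstream and the last, of 184.0, lay 92 bp upstream with Srp72 as the nearest gene. Only the weakest of its 3 summits was therefore nearest to Srp72 itself.

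Srp19, which takes part in the assembly of SRP on its RNA, had a signal of 451.1 at 461 bp upstream, with ranks of 3010, 2715 and 2320 (mean 2682 ± 346, SD, n = 3). The summit lay in the 5′ UTR of qm, 182 bp from the TSS of qm. Srp9 and Srp14 form the pair that slows elongation while SRP is bound. For Srp14 the signal was 333.7 at 130 bp upstream, and the ranks were 4333, 4883 and 3681 (mean 4299 ± 602, SD, n = 3). Srp9 was the weakest member with a peak, at 172.4 and 131 bp upstream, with ranks of 9450, 6321 and 8513 (mean 8095 ± 1606, SD, n = 3). Its summit was 122 bp from the TSS of syd and so nearer to that gene. The pair thus stood apart in strength, with all 3 ranks of Srp14 ahead of all 3 of Srp9.

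Among translocon genes TRAM, which encodes a membrane protein that contacts chains as they enter the ER, had the strongest peak of all members. Its signal was 1363.4, rank 188 of the optimal list, and its ranks were 232, 173 and 138 (mean 181 ± 47.5, SD, n = 3). The peak spanned chrX:935092-935558 with its summit 86 bp upstream of a TRAM TSS, in the 5′ UTR of another TRAM transcript, and no other protein-coding TSS lay within 1000 bp. By the best region with its summit within 1000 bp, all 3 replicates placed TRAM ahead of every other member. By regions that overlap the peak, Sec61alpha was ahead of it in replicate 1, at 219 against 232. Trp1, the fly counterpart of Sec62, which helps chains into the channel after their synthesis, had a signal of 807.3 and ranks of 924, 616 and 1139 (mean 893 ± 263, SD, n = 3). Its peak, chr2L:10009783-10010411, had its summit 142 bp upstream of a TSS and in an intron of Trp1, again with no other protein-coding TSS in reach.

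Sec61alpha, the pore-forming subunit of the channel, had a signal of 370.7 at 290 bp upstream, 64 bp from the TSS of Daxx, and ranks of 4678, 1802 and 1991 (mean 2824 ± 1609, SD, n = 3). Replicate 1 stood behind the other two by these ranks. A second summit, of 261.1, lay in an intron 916 bp downstream. Its interval overlapped a far stronger region in each replicate, ranked 219, 580 and 305, whose own summit lay 1131, 1149 and 1156 bp from the TSS and so outside the limit. By these overlapping regions replicate 1 had the best of the 3 ranks, so the order of the replicates at Sec61alpha depends on which region is read. SsRbeta, a subunit of the translocon-associated signal sequence receptor, had a signal of 526.5 at 813 bp upstream and ranks of 1719, 1925 and 3014 (mean 2219 ± 696, SD, n = 3). Both of its summits were nearer to Pgm1, the main one by its distance of 273 bp. Sec63, which brings the chaperone BiP to the channel, had a signal of 215.5 at 2 bp upstream, with ranks of 8066, 5245 and 10495 (mean 7935 ± 2627, SD, n = 3). Its rank in replicate 3 was outside the 9531 strongest regions.

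COPII peaks lay at Sec23, Sar1, Sec13 and Sec16, and Sec23 stood far ahead of the rest. Sec23 belongs to the inner coat and stimulates GTP hydrolysis by Sar1. Its signal was 763.3 at 289 bp upstream and its ranks were 1456, 541 and 912 (mean 970 ± 460, SD, n = 3). That summit was 38 bp from the TSS of MTA1-like, while a second, of 499.5 at 86 bp upstream, was nearest to Sec23. Sar1, the GTPase that starts coat assembly, had a signal of 266.0 in an intron 718 bp downstream and ranks of 6383, 6492 and 4188 (mean 5688 ± 1300, SD, n = 3).

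Sec13, an outer coat subunit, had a signal of 236.0 at 424 bp downstream, in an intron, and ranks of 7488, 5026 and 9922 (mean 7479 ± 2448, SD, n = 3). Sec16, the scaffold of ER exit sites, had a signal of 195.5 at 255 bp upstream. A second summit, of 161.3, lay 422 bp upstream and 1 bp from the TSS of CG1824. The best ranks of Sec16 were 6859, 5543 and 9246 (mean 7216 ± 1877, SD, n = 3). They do not belong to 1 peak. The peak of 195.5 did not overlap the 9531 strongest regions of replicate 2, nor that of 161.3 those of replicate 3. None of the ranks of Sar1, Sec13 and Sec16 came within the range of Sec23. Neither Sec13 nor Sec16 had a single summit whose peak overlapped the 9531 strongest regions in all 3 replicates, though all 3 ranks of Sec16 were within 9531.

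COPI peaks lay at alphaCOP, epsilonCOP and Arf1. alphaCOP, a subunit of the outer layer of the coat, was second to TRAM among all members, with a signal of 927.5 at 140 bp upstream and a peak at chr3L:1645132-1645636. Its ranks were 1115, 360 and 350 (mean 608 ± 439, SD, n = 3), with replicate 1 behind. The TSS of CG13919 was 128 bp from the summit and so slightly closer. epsilonCOP, also of the outer layer, had a signal of 408.1 at 172 bp upstream and ranks of 4213, 2367 and 3011 (mean 3197 ± 937, SD, n = 3). Its nearest TSS was that of KFase at 162 bp, and a second summit of 237.1 lay 27 bp downstream of its own.

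Arf1 encodes the GTPase that recruits the COPI coat. Its signal was 216.3 at 27 bp upstream, in its 5′ UTR. It ranked 8548 in replicate 1 and 5281 in replicate 3, and replicate 2 held no region within 1000 bp of it among its 30000. Arf1 was the only member with a peak that lacked a region in a replicate.

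Of the folding genes, Calr, the calcium-binding lectin chaperone calreticulin, had a signal of 582.0 at 29 bp upstream and ranks of 1780, 2360 and 706 (mean 1615 ± 839, SD, n = 3). In replicate 1 the region ranked 1780 did not overlap this peak, and the best region that did ranked 2129. Its highest rank number was 3.34 times its lowest, the widest spread of the 20 members ranked in every replicate. Pdi, which forms and reshuffles disulfide bonds, had a signal of 338.6 in an intron 705 bp downstream and ranks of 3297, 5208 and 5086 (mean 4530 ± 1070, SD, n = 3). All 3 ranks of Calr were ahead of those of Pdi.

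The 3 receptor peaks lay between 376.5 and 542.4. KdelR, which returns ER residents from the Golgi, had 542.4 at 303 bp upstream and ranks of 2043, 1751 and 1568 (mean 1787 ± 240, SD, n = 3). The summit was 43 bp from the TSS of SmB, and a second, of 288.7 at 98 bp upstream, was nearest to KdelR. ergic53, a lectin that carries glycoproteins out of the ER, had 441.7 at 8 bp downstream and ranks of 3003, 3015 and 2109 (mean 2709 ± 520, SD, n = 3). p24-1, of the p24 family of cargo receptors, had 376.5 at 21 bp upstream and ranks of 5068, 3281 and 2510 (mean 3620 ± 1312, SD, n = 3). The 3 ranks of KdelR were ahead of all ranks of the other two.

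**Figure D3:**
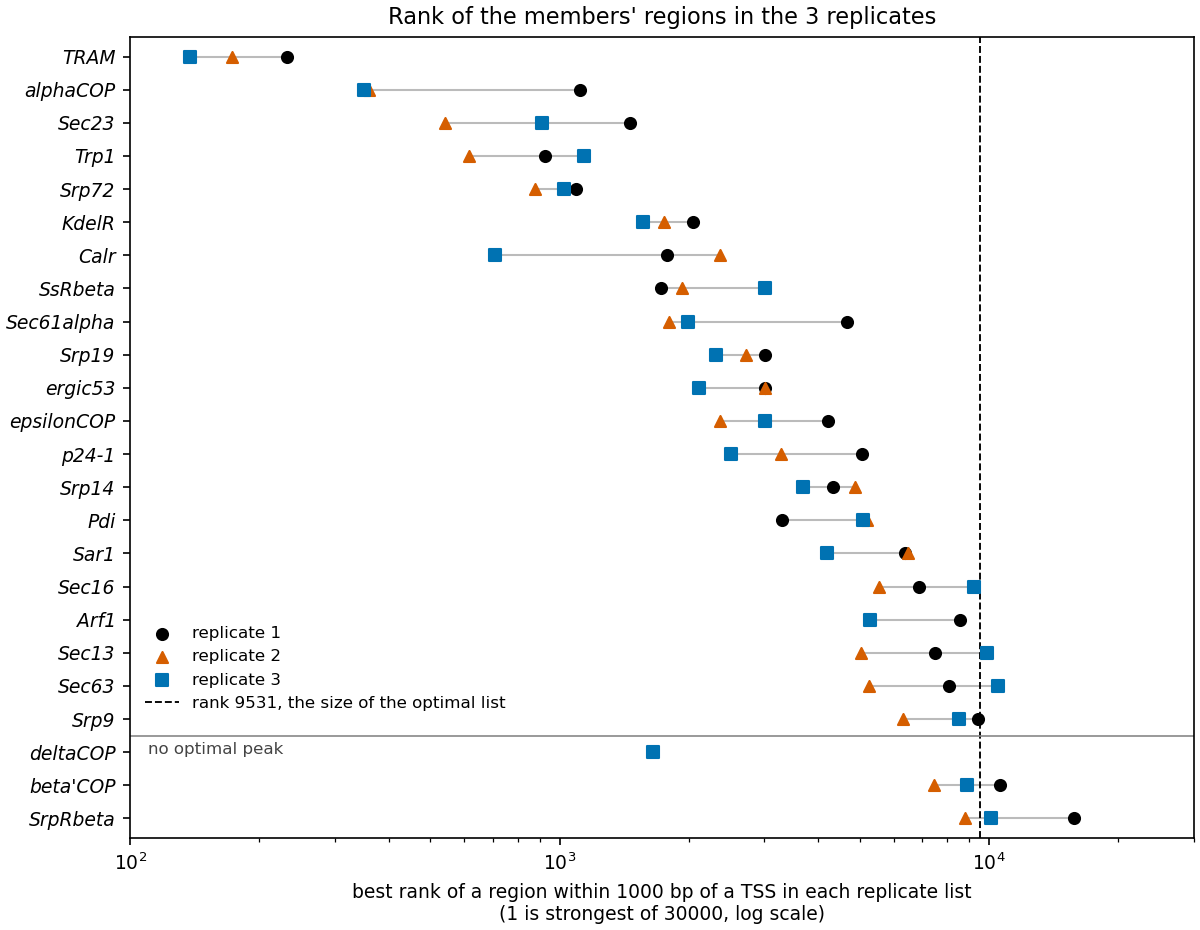
Best rank of a region within 1000 bp of a TSS in each replicate list (log scale, 1 is strongest of 30000) for the 21 members with a peak and the 3 without a peak that had a region in a replicate. The dashed line marks rank 9531, and TRAM has the best rank plotted in each replicate, 232, 173 and 138.

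The plot of replicate ranks shows that the order of the members was much the same in the 3 replicates. Over the 20 members ranked in each, the median rank was 3154, 2541 and 2415 (SD of the 3 medians 395), and the median ratio of a member's highest to its lowest rank number was 1.71, from 1.25 for Srp72 to 3.34 for Calr. Spearman's rho across these 20 genes was 0.886 for replicates 1 and 2, 0.863 for 1 and 3 and 0.895 for 2 and 3, as a description over genes, which are not replicates and share the optimal list's selection. Replicate 1 gave the worst of a member's 3 ranks for 10 of the 20 and the best for 2. When peaks had to overlap the 9531 strongest regions of both remaining replicates, 17 members kept a peak without replicate 1, 19 without replicate 2 and 20 without replicate 3, beside 26.7%, 26.5% and 26.6% of all protein-coding genes. Arf1, Sec13, Sec16 and Sec63 were lost without replicate 1, Sec13 and Sec63 without replicate 2 and Arf1 without replicate 3.

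The other 17 members had no peak, and most had no region in any list. For 14 of them (36.8% of the 38, beside 42.2% of all protein-coding genes) no region of the replicate lists or the pooled list lay within 1000 bp. These were Srp54k, the GTPase that binds the signal peptide, Srp68 and SrpRalpha; the channel subunits Sec61beta and Sec61gamma; the signal peptidase subunits Spase12 and Spase25; Sec31, the partner of Sec13; betaCOP, gammaCOP and zetaCOP; Gp93, the ER chaperone of the Hsp90 family; and the p24 proteins bai and CHOp24. Partners of 1 complex were therefore divided, with a peak at Srp72 and Sec13 and none at Srp68 and Sec31, and a peak at 1 of the 3 Sec61 channel genes. A pooled-list region lay near 22 members (57.9%), beside 43.3% of all protein-coding genes.

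The remaining 3 genes without a peak had regions in replicates. deltaCOP ranked 1648 in replicate 3, 23 bp from its TSS, and had no region in replicates 1 and 2. beta'COP ranked 10639, 7441 and 8915 and had no region in the pooled list. SrpRbeta, the membrane subunit of the SRP receptor, ranked 15784, 8818 and 10138 and reached rank 10226 in the pooled list. With these counted by their replicate ranks, COPI had 3 of 8 genes in replicates 1 and 2 and 5 of 8 in replicate 3. These shares were 37.5%, 37.5% and 62.5%, beside 31.0%, 33.2% and 35.6% of all protein-coding genes in replicates 1, 2 and 3. Regions missing from the pooled list were not peculiar to these genes, since of the 9531 strongest regions of each replicate 273, 440 and 748 overlapped no pooled region. Why they are missing was not tested.

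Around the limit of 1000 bp the farthest summits inside were those of Srp72 at 952 bp and Sec61alpha at 916 bp, each of which had a nearer summit as well. Of the genes with a single summit Sar1 at 718 bp and Pdi at 705 bp lay farthest out. Among the members without a peak, the nearest summit was 1973 bp from Gp93, with a signal of 610.8, followed by 2726 bp for Sec61beta and 3126 bp for zetaCOP. With a limit of 500 bp, 18 members had a peak (47.4%, beside 26.8% of all protein-coding genes) and Pdi, Sar1 and SsRbeta did not. With 2000 bp, Gp93 was added to make 22 (57.9%, beside 36.9%). Any base of a peak within 1000 bp gave the same 21 genes, beside 32.3%.

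**Figure D4:**
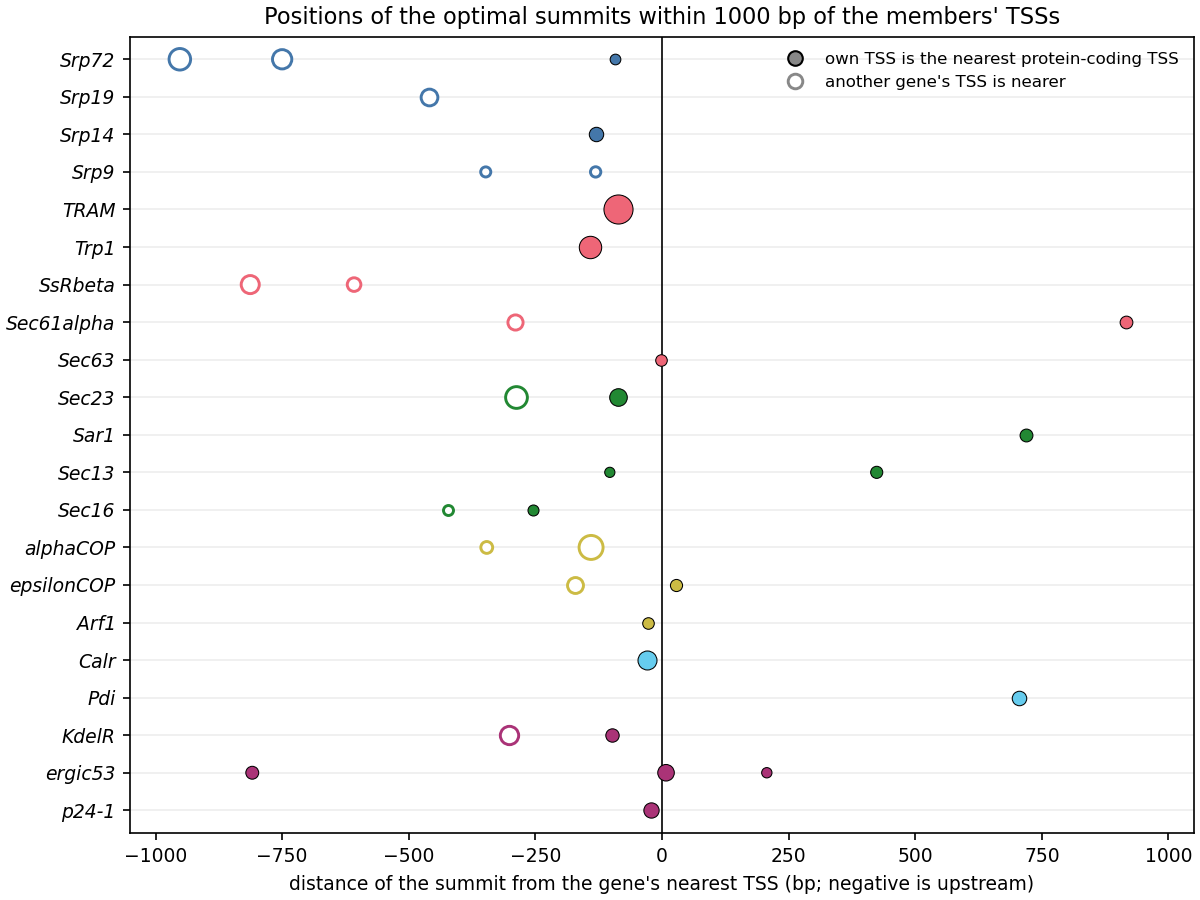
Distance of every optimal summit from the nearest TSS of its gene, in bp with upstream negative, for the 21 members with a peak; a larger point is a stronger signal, and an open point is a summit nearer to another protein-coding gene. The strongest summit lies upstream for 17 of the 21 genes and is open for 9.

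The plot of summit positions shows on which side of the TSS the peaks lay and whether another gene was closer. The strongest summit was upstream of the member's TSS in 17 of 21 genes (81.0%), beside 69.8% of all genes with a peak, and its median distance was 172 bp, beside 174 bp. It was nearest to the member's own TSS in 12 of 21 (57.1%), beside 73.7%. In the other 9 (Srp9, Srp19, Srp72, Sec61alpha, SsRbeta, Sec23, alphaCOP, epsilonCOP and KdelR) another protein-coding TSS was closer, and for 8 of these the closest neighbouring gene is transcribed from the opposite strand. With peaks assigned only to the gene of the nearest TSS, 17 members kept a peak (44.7%, beside 24.5% of all protein-coding genes), since Sec23, KdelR, Srp72, Sec61alpha and epsilonCOP had further summits of their own while Srp9, Srp19, SsRbeta and alphaCOP did not.

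Genes with a close neighbour have a higher background of peaks, and more of the members had one. Of the 38 members 24 (63.2%) had another protein-coding TSS within 1000 bp, beside 42.8% of all protein-coding genes, and 14 of the 24 (58.3%) had a peak, beside 42.4% of all protein-coding genes with such a neighbour. Of the 14 without a neighbour 7 had a peak, beside 22.6%. The members' share was thus above the background with and without a neighbour. Members also lay close to each other: the TSSs of Srp14 and Srp72 are 8596 bp apart on chromosome 3R, those of Srp19 and Sec63 12527 bp apart on 3L, and those of Sec61alpha and epsilonCOP 8515 bp apart on 2L, and all 6 genes counted as having a peak.

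Other short words were searched with the results known. The DNA replication-related element TATCGATA, an 8-base promoter word of the fly, lay within 50 bp of the strongest summit in 2 of 21 members (9.52%), beside 3.15% of promoter summits. Over all 34 member summits it lay at 2 (5.88%). The 2 members were Sec63 and ergic53, whose matches are shown in capitals because they lie close to the TSS.
Sec63 (chr3L:7360509-7360538): tgcctcccgccTATCGATAgccgtgcaatc
ergic53 (chr3L:8534935-8534964): tggtTATCGATAtcatcagtttgcaccatc
Neither summit held the forkhead word. The core ACGTG, known as the centre of sites bound by CrebA and Xbp1, lay at 3 of 21 strongest summits (14.3%, beside 10.1%). These were at alphaCOP, Sec63 and p24-1. Over all 34 member summits the core lay at 4 (11.8%).

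In whole promoters both words were more frequent among the members than among all genes, whether or not the gene had a peak. ACGTG was in 20 of 38 promoters (52.6%), beside 28.9% of all protein-coding promoters. It was in 11 of the 21 with a peak (52.4%) and 9 of the 17 without (52.9%), so its presence did not separate these groups. TATCGATA was in 9 of 38 (23.7%), beside 10.2%, and in 6 of 21 (28.6%) and 3 of 17 (17.6%). Of the 49 other secretory genes 29 (59.2%) held ACGTG and 12 (24.5%) held TATCGATA. These are counts of letters and do not show that any factor was bound.

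The wider pathway was read from a list of 49 further secretory genes. Of these 21 (42.9%) had a peak, fewer than the members' 55.3% and more than the background of 31.1%. Another protein-coding TSS lay within 1000 bp of 31 of the 49 (63.3%), beside 42.8% of all protein-coding genes. Of those 31, 11 (35.5%) had a peak, below the 42.4% of all protein-coding genes with such a neighbour. Of the 18 without a neighbour 10 (55.6%) had a peak, above the matching 22.6%. The list includes 2 regulators, CrebA and Xbp1, and both are among the 21. The gap to the members was smaller in replicate lists, where 21, 24 and 26 of the 49 had a region, a share of 48.3% ± 5.14 (SD, n = 3) beside 56.1% ± 1.52. Oligosaccharyl transferase genes had a peak in 4 of 6, further translocon genes in 3 of 4, folding enzymes and lectins in 4 of 8, COPII partners in 4 of 9, Golgi tethers in 3 of 8, further p24 genes in 1 of 4, and COPI partners in 0 of 8. In the optimal list COPI thus had the lowest share among the members and in this list. Replicate 3 differed, with 5 of 8 COPI members, a higher share than in 4 of the other steps, and 2 of the 8 COPI partners, Sec71 and Sec20.

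The strongest peak of this wider list was at ERp60, a relative of Pdi, with a signal of 1529.0 and ranks of 137, 230 and 52, ahead of TRAM in the optimal list. Stt3A, the catalytic subunit of oligosaccharyl transferase, had 1132.8 and ranks of 305, 309 and 449, in an intron of bves and nearer to the TSS of bves (192 bp) than to its own (417 bp). Hsc70-3, the fly BiP that works with Sec63, had 799.2 and ranks of 442, 1620 and 1494, and Sec24AB, the cargo-binding partner of Sec23, had 685.5 and ranks of 1013, 1689 and 1356. Of the regulators, CrebA had a peak of 207.8 at 885 bp upstream with ranks of 6833, 7055 and 9257, and Xbp1, a factor of the unfolded protein response, had 361.4 at 173 bp upstream with ranks of 4887, 2957 and 3075. Both regulators were below the median of 395.1 over all genes with a peak.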

How the data were processed

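ChIP-seq peak lists that the authors deposited on the dm6 build were used: 1 per replicate, 1 for pooled replicates and the optimal list. Per the deposited file lists, replicates were called against a shared control and the optimal list came from a reproducibility (IDR) step. Aligner, peak caller and IDR threshold: not given in the sources used here. Each deposited region has a signal, a score on an unstated scale, and a −log10 q-value, which was 4.289 for every deposited optimal peak and so was not used to rank. Summits were read 1-based. The 9531 optimal summits lie in 8728 intervals, and summits of 1 interval share replicate overlaps. The dm3 lists were not used here.

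TSSs came from Ensembl release 115 and sequence from the RefSeq release 6 assembly. The members, steps, words and alternatives were chosen with earlier results of these data known. Of 53 symbols of further secretory genes, 3 repeated another gene and 1 was unmatched, which left 49; older symbols were matched by synonym. Every member is accounted for, with full values for the 3 strongest of each step and those whose call changes; of the further genes the 4 strongest and the regulators are named. Replicate overlap meant 1 shared bp. The samples are labelled biological replicates, and no p-values were computed. Python 3.11.15, numpy 2.4.6, pandas 2.3.3 and matplotlib 3.10.9 were used, and the counting was tested on simulated data.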

Additional observations from a re-analysis of the deposited data

How the results depend on the processing

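The members' count of 21 of 38 ranged from 15, for peaks above the list's median signal, to 22 with a limit of 2000 bp. With a replicate left out, so that peaks had to overlap the strongest regions of both others, it was 17 to 20. The optimal list itself still rested on all 3 replicates, so leaving 1 out in this way could only lower the count. In each of the 9 alternatives tried the share was above that of all protein-coding genes under the same call. Single steps moved more. COPII fell from 4 of 5 genes to 1 with peaks above the median signal (20.0%, beside a background of 20.9%) and to 2 in all 3 replicates (40.0%, beside 25.1%), and ranged from 2 to 4 with a replicate left out (2 without replicate 1, by the loss of Sec13 and Sec16). SRP fell from 4 of 8 to 2 with nearest TSSs only (beside a background of 24.5%), and folding from 2 of 3 to 1 within 500 bp (33.3%, beside 26.8%). The COPII share above the median signal and the SRP share by nearest TSS were close to the background. So was the COPI share under several rules. At 2 of 8 genes it was below the background without replicate 1 (26.7%), without replicate 3 (26.6%) and in all 3 replicates (25.1%). It was just above with nearest TSSs only (2 of 8, beside 24.5%) and within 2000 bp (3 of 8, beside 36.9%). Under the other rules the COPI share was further above the background. The forkhead word at 9 of 21 summits became 5 within 25 bp, 14 within 100 bp and 2 (9.52%, beside 20.0%) when narrowed to TGTTTAC and TGTTTAT. The median rank of 2766 ranged from 2540 to 3124 with a replicate left out and was 2695 by overlap. By overlap Sec61alpha moved from 4678, 1802 and 1991 to 219, 580 and 305, and Calr from 1780 to 2129 in replicate 1. No paired analysis was possible because the series holds 1 group. The cause of these changes was not tested beyond what each rule removes. Read depth is unknown, so a gene without a region cannot be told from one below detection, and steps of 3 to 9 genes do not fix an order.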
